A study of Homo sapiens with 21 samples.

Results

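The change examined here is what happened to the transcriptome of uninduced human forebrain progenitor cultures over the first 12 h after day 10 of differentiation. The cells are H9, an established human embryonic stem cell line, with the genotype TRE3G-2xFLAG GSX2 WT, a doxycycline-inducible transgene for a tagged form of the homeobox factor GSX2, and every group of the study carries it. The comparison takes 6 of the 21 libraries: 3 labelled Day 10, and 3 labelled NoDox 12 h that were grown on without doxycycline. It covers all 19655 features that passed a filter on low counts, of 61268 in the count table. Both groups went through the same LGE-like differentiation in Essential 6 medium, with LDN193189, SB431542 and XAV939 for 3 days, LDN193189 and SB431542 for 3 days, and then IWP2 and Activin A. Uninduced libraries at 24 h and 48 h, also 3 each, are used to show what followed. Whether replicates came from separate cultures is not stated in the labels, so p-values reflect only how far these libraries spread, which may be technical. Times of medium change and of day are likewise not stated there.

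The lateral ganglionic eminence (LGE) is the ventral forebrain zone from which striatal projection neurons arise, and GSX2 is one of the regulators of its progenitors. Such progenitors divide while a part of them leaves the cycle to become neurons, and they read out WNT, BMP, Activin and FGF signals that set regional identity. LDN193189 blocks BMP receptors, SB431542 blocks Activin and TGF-beta receptors, XAV939 and IWP2 lower WNT signalling, and Activin A signals through receptors that phosphorylate SMAD2 and SMAD3. Heat shock factor drives genes of cytosolic chaperones, and the unfolded protein response drives those of the endoplasmic reticulum (ER).

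The 6 libraries held 14.4 to 22.7 M counts each (M, 1e6). Values are CPM, counts per 1e6 counts of the library, after TMM scaling. In the smallest library, 3 counts, the limit that a count of 0 allows, come to 0.211 CPM, which covers counting error only. The first principal component of the 6 libraries held 70.7% of the variance and separated day 10 from 12 h. Day 10 replicate 1, the smallest library, stood apart on the second component, which held 17.4%, and its counts gave chi-square values over degrees of freedom of 10.8 and 14.5 against the other day 10 libraries, where other pairs within a group gave 2.29 to 4.80. Without it, 2817 genes were higher and 2938 lower at 12 h, against 3051 and 3202 with it, and where leaving out 1 of the 6 libraries moved a list count by more than 1.5 times, or to or from 0, the library and the count without it are given beside the list. The forebrain marker SIX3 was well expressed in both groups, while some others given below, such as GSX2 and EMX1, were low. SIX3, an anterior forebrain homeobox gene, measured 218, 231 and 230.5 CPM at day 10 and 202, 241 and 232 CPM at 12 h (log2 fold change -0.01 ± 0.08, edgeR adjusted p = 0.94). The labels call the cell type human embryonic stem cell, but POU5F1 and NANOG, which define that state, had 4 and 2 counts in all at day 10 and 11 and 10 counts at 12 h. Other markers in the pluripotency list were expressed. Its 10 tested genes summed to 590 to 625 CPM at day 10 and 569 to 602 CPM at 12 h.

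GSX2 itself (chromosome 4, 54099523 to 54102498, hg38) was low and its groups overlapped. It measured 12.2, 8.36 and 7.78 CPM at day 10 and 10.6, 8.18 and 7.08 CPM at 12 h, a log2 fold change of -0.10 ± 0.23 (edgeR adjusted p = 0.78, n = 3 per group throughout). The transgene row measured 0.352, 0.308 and 0.265 CPM at day 10 and 0.153, 0.0457 and 0.484 CPM at 12 h (-0.37 ± 0.94, adjusted p = 0.80). No difference in either was detectable between the groups.

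Over these 12 h, 3051 genes rose and 3202 fell at an adjusted p below 0.05 in edgeR's quasi-likelihood test, which is 15.5% and 16.3% of all genes tested, 31.8% in either direction. Most changes were small. Among the genes that rose, 64.1% changed by less than 1.5-fold, 470 (2.39% of all tested) rose by at least 2-fold and 68 by at least 4-fold. Among those that fell, 71.4% changed by less than 1.5-fold, 314 (1.60%) fell by at least 2-fold and 32 by at least 4-fold. The 3 libraries of one group lay wholly apart from the 3 of the other for 43.8% of all genes, and 29.9% were both called and wholly apart. Of the 6253 genes called in either direction, 5884 were wholly apart. Genes named for the largest changes were taken only if wholly apart, so a lack of overlap in them is no further support. The median log2 fold change of all genes was -0.007. Counts and medians of gene lists below are to be read against these shares and this median. The ± given with a log2 fold change is an approximate standard error.

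**Figure D1:**
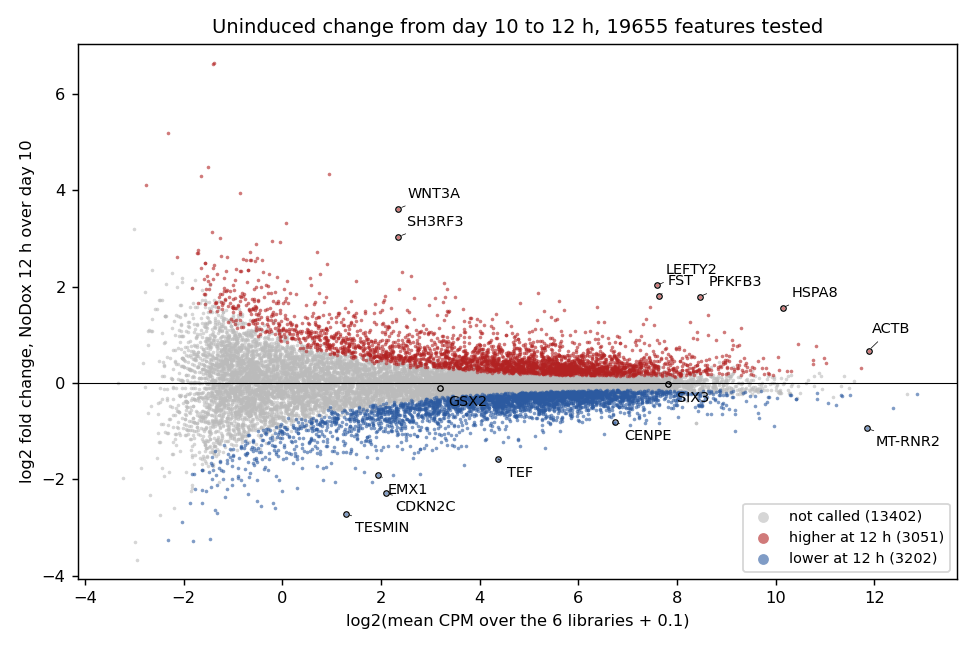
Each point is 1 of the 19655 features tested, with log2 of its mean CPM over the 6 libraries plus 0.1 on the horizontal axis and its log2 fold change at 12 h over day 10 on the vertical axis; red points are the 3051 called higher, blue the 3202 called lower and grey those not called. WNT3A and SH3RF3 stand above the other named genes, TESMIN and CDKN2C below, and GSX2 and SIX3 lie near 0.

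Of named genes that averaged 2 CPM or more, the WNT ligand WNT3A rose most. WNT3A (chromosome 1, 228006998 to 228061271), expressed at the dorsal midline of the forebrain, measured 0.634, 0.748 and 0.840 CPM at day 10 and 8.97, 10.3 and 8.62 CPM at 12 h. All 3 libraries at 12 h were above every day 10 library, with a log2 fold change of 3.62 ± 0.22 (adjusted p = 1.5e-12). WNT1, a ligand that also marks the dorsal midline and the isthmus, went from 1.13, 2.20 and 2.21 CPM to 4.18, 7.68 and 6.95 CPM (1.72 ± 0.27, adjusted p = 1.4e-05), again without overlap. WNT4, another ligand, rose by 1.57 ± 0.21. The R-spondin RSPO1, a secreted enhancer of WNT signalling, rose from 39.2, 54.5 and 54.2 CPM to 122, 126 and 111 CPM (1.27 ± 0.12), and RSPO3 rose by 0.85 ± 0.15. Of 25 WNT ligands, receptors and secreted modulators tested, 7 rose and 5 fell, with a median of 0.05 (-0.003 without day 10 replicate 1), and 3 fell without 12 h replicate 1. PORCN, the enzyme that acylates WNT ligands, fell by 0.45 on the log2 scale, and the frizzled receptor FZD2 by 0.27. Among 12 WNT/beta-catenin target genes, 3 rose and 0 fell. Without day 10 replicate 1 or 12 h replicate 2, 1 rose, and without 12 h replicate 3, 1 fell. TNFRSF19 rose by 0.92 ± 0.09, while AXIN2, the feedback inhibitor most used as a readout, was at -0.09 ± 0.10 (adjusted p = 0.49) and LEF1 at 0.18 ± 0.12 (adjusted p = 0.26).

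Inhibitors of Activin-type ligands rose together with targets of Activin and TGF-beta signalling. LEFTY2 (chromosome 1, 225936598 to 225941383), a secreted NODAL inhibitor and a direct SMAD2/3 target, measured 83.6, 77.6 and 67.4 CPM at day 10 and 299.7, 301 and 329 CPM at 12 h. The groups did not overlap, and the log2 fold change was 2.03 ± 0.12 (adjusted p = 6.6e-11). FST (chromosome 5, 53480626 to 53487134) encodes follistatin, which binds and neutralises Activin. It went from 92.2, 85.0 and 86.7 CPM to 318, 299.7 and 310.2 CPM, also without overlap (1.82 ± 0.08, adjusted p = 1.7e-15). LEFTY1, a close paralog of LEFTY2, had 3 counts in the day 10 libraries together and 55 at 12 h, a ratio of 17.0 with a 95% counting interval of 5.52 to 84.9, and the assignment of reads shared between such paralogs is not stated in the labels. In the list of 15 Activin and TGF-beta target genes tested, 11 rose and 0 fell, with a median log2 fold change of 0.70 (9 and 0 without day 10 replicate 1, and 1 lower without 12 h replicate 1). CDKN2B, a TGF-beta-induced CDK inhibitor, rose from 3.17, 4.84 and 4.91 CPM to 16.1, 15.5 and 13.9 CPM (1.78 ± 0.16). TAGLN, an actin-binding protein, rose by 1.57 ± 0.19, PMEPA1, a SMAD feedback inhibitor, by 1.11 ± 0.07, and SMAD7, the inhibitory SMAD, by 0.55 ± 0.12. EOMES was at -0.17 ± 0.11 (adjusted p = 0.25) and TGFBI was not called. FST is counted with the ligands, receptors and antagonists of the pathway, where 6 of 26 rose and 4 fell with a median of 0.04. In that group TGFB1 rose by 0.84 ± 0.14 and the BMP antagonist NOG by 0.65 ± 0.09, while the antagonist CHRD fell by 0.64 and the receptor TGFBR2 by 0.58 on the log2 scale. Of 11 BMP target genes, 4 rose and 0 fell (1 fell without 12 h replicate 2). ID1 rose by 0.74 ± 0.21 and SMAD6 by 0.62 ± 0.13, and ID4 went from 437, 385 and 406 CPM to 521, 525 and 528 CPM (0.36 ± 0.08).

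FGF and Notch genes went in both directions. Among 17 FGF ligands and receptors, 5 rose and 6 fell. The ligand FGF3 went from 0.423, 0.792 and 0.265 CPM to 2.04, 2.51 and 2.29 CPM (2.17 ± 0.37, adjusted p = 4.3e-05), with day 10 replicates 1 and 3 close to the counting limit. The receptor FGFR3 rose by 0.60 ± 0.07. FGF10 fell from 0.634, 0.969 and 0.928 CPM to 0.204, 0.274 and 0.220 CPM, close to the counting limit. In the Notch pathway 7 of 21 rose and 4 fell. The receptor NOTCH3 rose by 0.77 ± 0.08, the ligand JAG1 by 0.53 ± 0.09 and the feedback gene NRARP by 0.55 ± 0.07, whereas the ligand JAG2 fell by 0.72 and the target HES5 by 0.33 on the log2 scale.

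Heat shock chaperones rose almost throughout. Of 17 heat shock genes tested, mitochondrial chaperonins included, 16 rose and 0 fell, against 15.5% of all genes, with a median log2 fold change of 0.66. HSPA8 (chromosome 11, 123057489 to 123063230), the constitutive HSP70 chaperone, measured 592, 576 and 554 CPM at day 10 and 1786, 1692 and 1606 CPM at 12 h (1.56 ± 0.08, adjusted p = 9.5e-15). Its 12 h libraries all lay far above its day 10 libraries. HSPH1, an HSP110 exchange factor, went from 102, 90.4 and 92.5 CPM to 251, 236 and 223 CPM (1.32 ± 0.08), and the HSP40 co-chaperone DNAJA1 rose by 1.00 ± 0.09. FKBP4 and HSP90AA1, which act in the HSP90 cycle, rose by 0.98 ± 0.07 and 0.76 ± 0.09. The mitochondrial chaperonin pair HSPE1 and HSPD1 rose by 0.83 ± 0.07 and 0.47 ± 0.07. The stress-inducible HSPA1A and HSPA1B rose by 0.56 ± 0.11 and 0.75 ± 0.11, but their sequences are nearly identical, so the split between them is uncertain. BAG3, an HSP70 co-factor, was the member not called (-0.16 ± 0.08, adjusted p = 0.14).

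The ER chaperone group moved the same way. Of 16 unfolded protein response genes, 13 rose and 0 fell, with a median of 0.41 (1 fell without day 10 replicate 1 or 12 h replicate 2). HSPA5, the ER HSP70 also called BiP, measured 422, 383 and 355 CPM at day 10 and 721, 744 and 699.9 CPM at 12 h (0.90 ± 0.07, adjusted p = 9.1e-11), with no overlap. The co-chaperones SDF2L1 and DNAJC3 rose by 0.83 ± 0.13 and 0.78 ± 0.09, CRELD2 by 0.72 ± 0.09, the secreted factor MANF by 0.70 ± 0.12 and the disulfide isomerase PDIA4 by 0.54 ± 0.05. EDEM1, a gene of ER-associated degradation, was at -0.19 ± 0.08 (adjusted p = 0.056). Genes that follow ATF4, the factor of amino acid and ER stress, rose in part, with 12 of 22 higher and 1 lower. Without 12 h replicate 1 these counts were 7 and 2, and 0 were lower without day 10 replicate 1 or 12 h replicate 3. STC2 rose from 37.1, 45.7 and 42.9 CPM to 121, 128 and 128 CPM (1.58 ± 0.13) and DDIT4 by 0.79 ± 0.09, but DDIT3 (-0.00, adjusted p = 0.99) and ASNS (-0.23, adjusted p = 0.086) were not called.

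The promoters of the chaperone groups and of the cell cycle groups were read from a RefSeq table (GRCh38.p14, windows of 300 bases from 250 before to 50 after each gene's start, both strands searched). These 5 motifs were chosen after these lists were seen to move, and a match is a description of letters only. The lists were also made in part of known target genes, so the lists' shares may follow from that choice and not from the change at 12 h. The heat shock element letters GAANNTTC were in 37.5% of the 16 heat shock genes' promoters in the table, in 4.74% of the promoters of all genes tested and in 6.87% of all 27305 promoters. The ER stress element was in 31.2% of the 16 unfolded protein response promoters, in 0.108% of those of genes tested and in 0.0806% of all. The E2F letters TTTNGCG were in 61.1% of 18 S phase promoters, in 7.59% of those of genes tested and in 5.20% of all. The cell cycle homology region TTTGAA was in 55.0% of 20 G2 and M phase promoters, against 9.99% of those of genes tested and 15.4% of all. CCAAT was in 80.0% of the G2 and M phase promoters, but also in 93.8% of unfolded protein response, 66.7% of S phase and 60% of ATF4 list promoters, against 36.2% of those of genes tested and 35.7% of all. The ER stress element contains CCAAT. Such high shares were not seen among genes changed at least 2-fold, but these sets hold few members of the lists. Only 2 heat shock genes and 0 unfolded protein response or S phase genes rose by at least 2-fold. Promoters were in the table for 258 of the 470 genes that rose as much and 164 of the 314 that fell. The heat shock element was in 6.59% of promoters of genes that rose at least 2-fold and in 7.93% of those that fell as much. E2F letters were in 5.43% and 3.05%, and CCAAT in 29.8% and 34.8%, in that order. TTTGAA was in 12.2% of those that fell and in a larger share of those that rose. Neither set held the ER stress element (0% of each). The lines that follow give the 250 bases before the start of 1 gene that moved in each group, 5′ to 3′ on the gene's strand with the letters of that group's motifs in capitals: HSPA8 at chr11:123062137-123062386 (minus strand) with 2 heat shock element matches, HSPA5 at chr9:125241344-125241593 (minus) with 1 ER stress element, UHRF1 at chr19:4909251-4909500 (plus) with 1 E2F match, and CCNB2 at chr15:59104896-59105145 (plus) with 5 runs in capitals, each CCAAT or TTTGAA.
HSPA8: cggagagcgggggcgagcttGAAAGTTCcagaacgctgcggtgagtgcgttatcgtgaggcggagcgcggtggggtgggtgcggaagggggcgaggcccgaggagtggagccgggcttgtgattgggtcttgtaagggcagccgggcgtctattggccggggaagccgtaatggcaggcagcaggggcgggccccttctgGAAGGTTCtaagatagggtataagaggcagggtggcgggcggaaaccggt
HSPA5: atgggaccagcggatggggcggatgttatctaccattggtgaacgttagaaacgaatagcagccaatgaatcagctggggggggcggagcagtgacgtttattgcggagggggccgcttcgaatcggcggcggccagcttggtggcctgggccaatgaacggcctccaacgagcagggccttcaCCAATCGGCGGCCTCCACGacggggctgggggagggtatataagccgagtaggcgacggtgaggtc
UHRF1: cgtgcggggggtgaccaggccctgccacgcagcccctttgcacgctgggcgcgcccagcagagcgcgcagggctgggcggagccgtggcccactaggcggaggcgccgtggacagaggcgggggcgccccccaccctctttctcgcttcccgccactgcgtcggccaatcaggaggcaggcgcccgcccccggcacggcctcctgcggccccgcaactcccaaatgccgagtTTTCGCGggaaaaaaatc
CCNB2: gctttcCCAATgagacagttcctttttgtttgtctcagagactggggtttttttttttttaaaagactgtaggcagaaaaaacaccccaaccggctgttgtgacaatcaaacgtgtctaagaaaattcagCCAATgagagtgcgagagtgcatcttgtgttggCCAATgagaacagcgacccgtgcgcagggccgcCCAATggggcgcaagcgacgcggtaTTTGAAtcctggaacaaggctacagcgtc

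Genes of cell growth rose beside the chaperones. Of 23 tested genes of ribosome biogenesis and related growth targets, 17 rose and 1 fell, with a median of 0.39 (0 fell without day 10 replicate 1, 12 h replicate 1 or 12 h replicate 3, and with DESeq2-style size factors). UTP20, a processing factor of the small ribosomal subunit, went from 9.58, 15.5 and 15.6 CPM to 35.3, 35.4 and 29.1 CPM (1.27 ± 0.15, adjusted p = 9e-07). RRP9, a protein of the U3 small nucleolar ribonucleoprotein, rose from 10.9, 8.80 and 11 CPM to 25.3, 23.0 and 22.0 CPM (1.20 ± 0.12), and SRM, spermidine synthase, by 1.08 ± 0.09. RRP12, PES1 and POLR1A, the large subunit of RNA polymerase I, rose by 0.91 ± 0.11, 0.65 ± 0.06 and 0.57 ± 0.12. The abundant nucleolar genes NPM1 (0.07, adjusted p = 0.63) and FBL (0.05, adjusted p = 0.69) were not called. E-box letters CACGTG were in 38.9% of the 18 promoters of this list found in the table, in 9.65% of those of genes tested and in 7.43% of all promoters. That motif was in the design, but the list was made in part of known target genes, so its share may follow from that choice. E-box letters were in 11.6% of promoters of genes that rose by at least 2-fold and in 9.15% of those that fell as much. Of 32 cytosolic ribosomal protein genes, 0 rose and 2 fell, with a median of -0.17 and all 32 values below 0. Without day 10 replicate 1, 1 fell and the median was -0.007, and without day 10 replicate 3, 8 fell and the median was -0.265.

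Genes of glucose uptake and of the control of glycolysis also rose. Of 25 hypoxia and glycolysis genes, 14 rose and 0 fell, with a median of 0.40. PFKFB3 (chromosome 10, 6144934 to 6254644), which makes the allosteric activator of phosphofructokinase, measured 160, 157 and 156 CPM at day 10 and 537, 536 and 572 CPM at 12 h (1.80 ± 0.09, adjusted p = 3.4e-13). Day 10 values were within a few CPM of each other and far below those at 12 h. EGLN3, an oxygen-sensing prolyl hydroxylase, rose from 29.9, 25.2 and 24.7 CPM to 66.5, 64.6 and 65.7 CPM (1.31 ± 0.09). PFKFB4 rose by 1.08 ± 0.07, hexokinase HK2 by 0.91 ± 0.10, PDK1 by 0.84 ± 0.08 and the glucose transporter SLC2A1 by 0.82 ± 0.08. LDHA (0.12, adjusted p = 0.57) overlapped between groups, as did the hypoxia marker CA9 at 0.705, 0.836 and 0.619 CPM against 0.713, 1.10 and 0.879 CPM.

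Cell cycle genes split by phase. Of 25 G2 and M phase genes tested, 22 fell and 0 rose, against 16.3% of all genes lower, with a median of -0.47. CENPE, a kinetochore motor, measured 130.4, 131 and 146 CPM at day 10 and 70.8, 82.4 and 80.6 CPM at 12 h (-0.80 ± 0.08, adjusted p = 4.6e-09). KIF20A, a cytokinesis motor, went from 115, 101 and 112 CPM to 59.9, 70.7 and 70.5 CPM, and CCNB2, a mitotic cyclin, from 142, 121 and 121 CPM to 74.3, 84.5 and 87.2 CPM. None of these 3 genes overlapped between the groups. TOP2A fell by 0.61, CDK1 and CDC20 by 0.50 each and AURKA by 0.49 on the log2 scale, and MKI67 (-0.38, adjusted p = 0.11), CENPF and BUB1B were not called. In the S phase and G1 cyclin list the direction was the reverse, with 15 of 23 higher and 2 lower and a median of 0.36 (1 lower without day 10 replicate 1 or 3, or 12 h replicate 1 or 3). UHRF1, which recruits maintenance DNA methylation to replicated DNA, went from 66.6, 75.9 and 75.3 CPM to 110.1, 115 and 104 CPM (0.59 ± 0.09), and the replicative helicase genes MCM5 and MCM2 rose by 0.58 ± 0.07 and 0.48 ± 0.06. CCND1, the G1 cyclin, rose from 170, 194 and 198 CPM to 256, 301 and 275 CPM (0.57 ± 0.07). CDT1, the licensing factor, fell by 0.28 on the log2 scale. In bulk libraries, fewer cells in a phase and less RNA per cell cannot be told apart.

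Among CDK inhibitors, 6 of 10 were lower and 1 was higher, with a median of -0.26. Without day 10 replicate 1, 4 were lower and 2 higher, and the median was -0.18. Leaving out day 10 replicate 2 or 3, or 12 h replicate 3, also gave 2 higher. CDKN2C (chromosome 1, 50960745 to 50974634), the p18 inhibitor of CDK4 and CDK6, fell from 8.67, 6.78 and 5.57 CPM to 1.48, 1.10 and 1.67 CPM, with no overlap (-2.28 ± 0.19, adjusted p = 5.9e-10). CDKN2D, of the same family, fell by 0.67, while CDKN2B rose as given above and CDKN1A was at -0.07 (adjusted p = 0.58). Of 18 p53 target genes, 1 rose and 4 fell (2 rose without day 10 replicate 1), so 5 of 18 were called, against 31.8% of all genes. The riser was BAX, from 55.2, 56.9 and 52.3 CPM to 116, 114 and 108 CPM (1.04 ± 0.07), and GADD45A fell by 0.73.

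More immediate early and clock genes fell than rose. Of 23 immediate early genes, 10 fell and 3 rose, with a median of -0.25 (1 rose without day 10 replicate 2 or 12 h replicate 1). EGR1 went from 112, 134 and 127 CPM to 47.2, 60 and 72.4 CPM (-1.05 ± 0.19, adjusted p = 0.00063), and the orphan receptor NR4A1 from 202, 222 and 202 CPM to 105, 118 and 132 CPM (-0.82 ± 0.08). JUN and JUNB fell by 0.40 and 0.41, and FOSL2 rose by 0.55 ± 0.11. Among 18 circadian clock genes, 8 fell and 3 rose, with a median of -0.23. TEF (chromosome 22, 41367333 to 41399326), a PAR-family output factor of the clock, measured 35.7, 27.6 and 30.0 CPM at day 10 and 8.25, 11.6 and 11.2 CPM at 12 h (-1.58 ± 0.15, adjusted p = 3.4e-08). DBP, of the same family, fell by 0.89, NR1D2 and PER2 by 0.81 each, CRY2 by 0.68 and PER1 by 0.50 on the log2 scale. The repressors BHLHE40 and CIART went up, BHLHE40 from 17.1, 22.4 and 22.1 CPM to 46.9, 60.5 and 68.1 CPM (1.5 ± 0.15) and CIART by 0.96 ± 0.08. BMAL1 (-0.29, adjusted p = 0.16) and NR1D1 (-0.17, adjusted p = 0.39) were not called. In the FOXO and insulin-responsive list 7 of 19 fell and 3 rose. PDK4 fell from 1.27, 1.14 and 0.530 CPM to 0.153, 0.274 and 0.264 CPM, close to the counting limit, and BCL6 by 0.71 on the log2 scale. Of 25 cholesterol synthesis genes, 3 rose and 4 fell, with 7 called, against 31.8% of all genes called. Among those that fell was the master regulator SREBF2 (-0.53 ± 0.07).

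**Figure D2:**
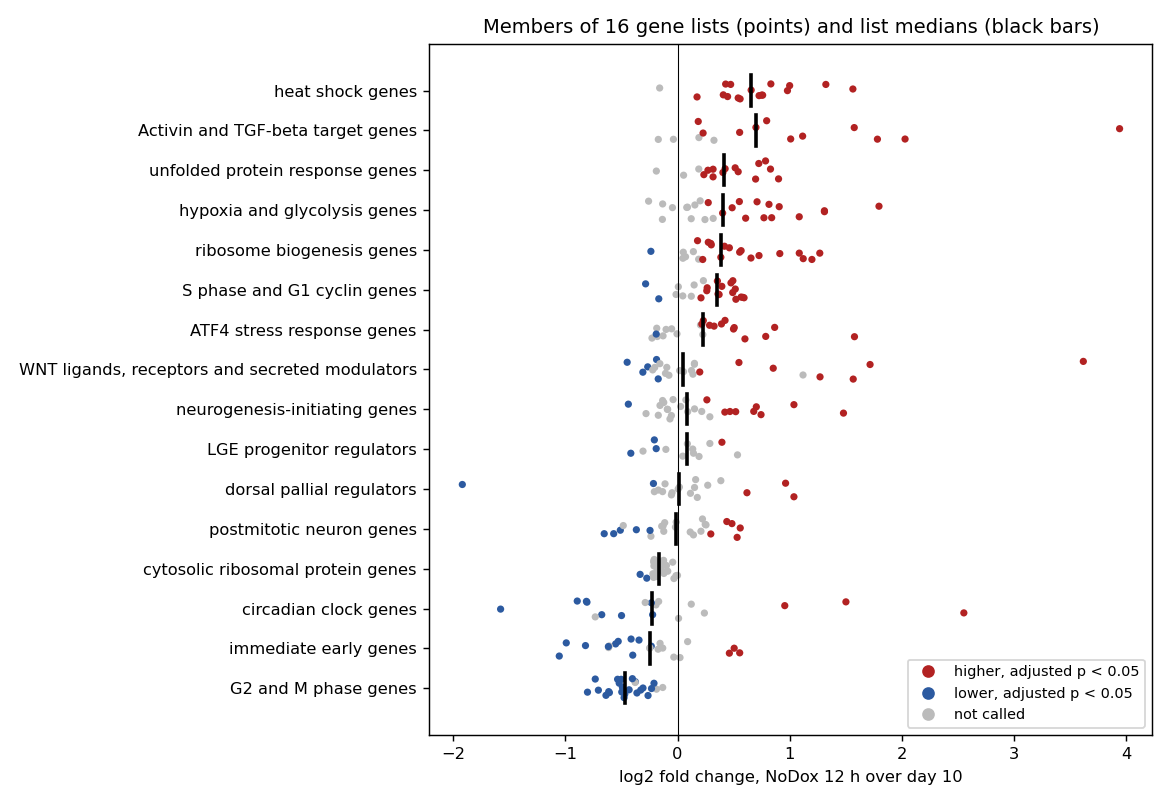
Each point is a member of 1 of 16 gene lists, placed by its log2 fold change at 12 h over day 10, red or blue where called higher or lower and grey where not called; black bars are list medians. Heat shock, Activin target and unfolded protein response members lie mostly to the right (medians 0.66, 0.70 and 0.41), G2 and M phase members to the left (-0.47), and patterning lists straddle 0.

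In the LGE, GABAergic and dorsal pallial lists, 4 of 13, 6 of 21 and 5 of 19 genes were called in either direction, against 31.8% of all genes. Of 13 LGE progenitor regulators, 1 rose and 3 fell, with a median of 0.09 (2 rose without day 10 replicate 1, 1 fell without day 10 replicate 3, and 1 fell with a median of -0.022 without 12 h replicate 1), and their summed level ran from 585 to 616 CPM at day 10 and 588 to 617 CPM at 12 h. VAX1, a ventral forebrain homeobox gene, rose by 0.40 ± 0.10 and MEIS1 fell by 0.42 on the log2 scale. DLX2, a downstream regulator of interneuron and striatal fate, measured 35.4, 23.9 and 23.0 CPM at day 10 and 42.0, 22.9 and 24.7 CPM at 12 h, a wide overlap (0.14 ± 0.29, adjusted p = 0.76). In the GABAergic and striatal list 3 of 21 rose and 3 fell. GAD1, the GABA-making enzyme, went from 9.58, 7.53 and 7.78 CPM to 19.5, 14.5 and 17.4 CPM, with no overlap (1.06 ± 0.18, adjusted p = 0.00011), and the striatal receptor gene ADORA2A fell by 0.67. Of 19 dorsal pallial regulators, 3 rose and 2 fell, with a median of 0.02 (4 fell without 12 h replicate 1, and the median was -0.016 without 12 h replicate 3). Values were above 0 for 11 of the 19 and below 0 for 8, and 1 of the risers rose by at least 2-fold. EMX1, a cortical homeobox gene, fell from 6.76, 6.21 and 4.91 CPM to 1.94, 1.46 and 1.32 CPM (-1.92 ± 0.27, adjusted p = 3.9e-06), while its relative EMX2 was at -0.21 (adjusted p = 0.077). PAX6 (0.12, adjusted p = 0.19) overlapped between groups, as SIX3 did.

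Among 22 radial glia and neural progenitor genes, 5 rose and 6 fell (3 fell without 12 h replicate 3). The intermediate filament NES went from 1433, 1445 and 1430 CPM to 2134, 2026 and 1866 CPM (0.48 ± 0.06, adjusted p = 1.5e-06). PROM1 and HES1 rose by 0.57 ± 0.07 and 0.42 ± 0.11. The SOXB1 factors went the other way, SOX3 from 205, 149 and 158 CPM to 108, 76.5 and 92.8 CPM (-0.88 ± 0.16) and SOX2 by -0.28 ± 0.07. Of 26 genes that start neurogenesis, 9 rose and 1 fell, with a median of 0.08 (2 fell without day 10 replicate 1 or 12 h replicate 1, and the median was -0.02 without the latter). NEUROD4 rose from 3.66, 5.42 and 6.81 CPM to 12.4, 17.5 and 15.3 CPM (1.48 ± 0.22), NEUROG1 from 11.8, 9.42 and 10.6 CPM to 23.1, 22.2 and 19.8 CPM (1.04 ± 0.13), and HES6, a neurogenic HES factor, by 0.74 ± 0.07. NHLH2 and GADD45G rose by 0.70 ± 0.12 and 0.68 ± 0.10, and SOX11 fell by 0.44 on the log2 scale. Postmitotic neuron genes were even in their calls, with 5 of 24 higher and 5 lower, and DCX and TUBB3 were not called. The summed level of this list ran from 2080 to 2130 CPM at day 10 and 2230 to 2550 CPM at 12 h, highest in 12 h replicate 1.

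Markers of other cell types moved in part beside these groups, and their part in the results above was not tested. The summed level of 9 non-neural ectoderm and epithelial markers ran from 426 to 475 CPM at day 10 and 513 to 554 CPM at 12 h, with 4 higher and 0 lower (2 and 0 without day 10 replicate 3), and KRT5 and KRT14 had 0 counts in both groups. For 7 mesoderm and endoderm markers the sum went from 39.0 to 42.7 CPM at day 10 to 60.5 to 65.6 CPM at 12 h, where 1 rose and 1 fell (0 fell without day 10 replicate 2 or 3, without 12 h replicate 2 or 3, and with DESeq2-style size factors). The riser was CXCR4 (0.81 ± 0.08), and TBXT, SOX17 and FOXA2 had 0 counts in both groups. Of 7 neural crest markers 1 rose (ETS1, 1.46 ± 0.22) and 2 fell (NGFR by 0.97 and SOX10 by 0.65 on the log2 scale), and the list summed to 881 to 915 CPM at day 10 and 806 to 853 CPM at 12 h. Of 13 hem, roof plate and choroid plexus markers 2 rose, WNT3A among them, and 4 fell, with a sum of 1370 to 1430 CPM at day 10 and 1170 to 1260 CPM at 12 h, and the choroid plexus gene TTR had 8 and 2 counts. Of 2 microglia and blood markers tested, 1 rose, CSF1R (2.02 ± 0.37), with a list sum of 0.423 to 1.10 CPM and then 1.96 to 3.30 CPM, and PTPRC had 4 counts and 1 count. Mesenchymal and endothelial markers summed to 93.2 to 104 CPM and then 98.8 to 107 CPM.

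Lists not yet described held calls in both directions or few calls, against 15.5% of all genes higher and 16.3% lower. Several lay near or below the 31.8% of all genes called either way. Examples are 2 of 14 retinoic acid genes, 5 of 15 YAP/TEAD targets and 6 of 25 nuclear-encoded respiratory chain genes. Of 18 ERK feedback and ETS target genes, 6 rose and 3 fell, among them PHLDA1 (0.79) and the phosphatase DUSP5 (-0.71). Of 13 hedgehog pathway genes 3 rose and 2 fell (1 rose without day 10 replicate 2 or 12 h replicate 2). Of 14 retinoic acid genes 0 rose and 2 fell (1 fell without any 1 library but day 10 replicate 3). Of 15 YAP/TEAD targets 4 rose, ANKRD1 by 1.01, and 1 fell (0 fell without day 10 replicate 2). Of 31 ephrin, semaphorin, netrin and slit genes 6 rose and 8 fell (5 fell without day 10 replicate 2 or 12 h replicate 2), with SEMA5B down by 0.77 on the log2 scale. Of 13 NRF2 and metallothionein genes 3 rose and 1 fell, led by the quinone reductase NQO1 (1.32 ± 0.11). Without day 10 replicate 2 or 12 h replicate 2, 1 of them rose, and without 12 h replicate 1, 0 fell. Of 25 nuclear-encoded respiratory chain genes 4 rose and 2 fell (7 and 1 without day 10 replicate 1). Without day 10 replicate 2 or 3 or 12 h replicate 1, 2 rose, without day 10 replicate 3, 5 fell, and without 12 h replicate 2 or 3, 1 fell. Of 10 ventral pallium genes 2 rose and 2 fell (1 rose without 12 h replicate 1 or 2, and 1 fell without day 10 replicate 3 or 12 h replicate 2). Of 5 medial ganglionic eminence genes 1 rose and 0 fell (0 rose without any 1 library but 12 h replicate 1). Of 11 diencephalon and eye field markers 4 rose and 1 fell. Without any 1 library 0 fell, as with DESeq2-style size factors, 1 rose without day 10 replicate 3, and 2 rose without each of the others but 12 h replicate 3. Of 7 midbrain and hindbrain markers 0 rose and 2 fell (0 fell without day 10 replicate 2 or 12 h replicate 1, and 1 without each of the others). Of 10 pluripotency markers 1 rose and 3 fell, of 11 mesenchymal and endothelial markers 2 rose and 1 fell, and of 14 oligodendrocyte and astrocyte genes 1 rose and 1 fell (0 rose without any 1 library, and 2 fell without day 10 replicate 2).

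Genes that gained and lost the most CPM, a scale not corrected for gene length, included structural and mitochondrial genes. ACTB, cytoplasmic actin, went from 2880, 2959 and 2912 CPM to 4628, 4642 and 4669 CPM (0.67 ± 0.07, adjusted p = 3.1e-08), and the actin cross-linker FLNA rose by 0.52 ± 0.06. The mitochondrial ribosomal RNA MT-RNR2 fell from 5662, 4498 and 4451 CPM to 2620, 2399 and 2588 CPM (-0.94 ± 0.10) and MT-CO1 by 0.51 on the log2 scale. Mitochondrially encoded features took 2.76 to 2.84% of counts at day 10 and 2.17 to 2.31% at 12 h. Of 13 mitochondrial protein genes, 4 fell and 1 rose (0 rose without day 10 replicate 1, 12 h replicate 1 or 12 h replicate 3, and with library totals). NNAT fell by 0.46 and the translation factor EEF2 by 0.27. DLK1, the imprinted NOTCH-like protein, went from 8005, 8478 and 7894 CPM to 6316, 7154 and 7305 CPM (-0.23 ± 0.08, adjusted p = 0.037), a call lost without day 10 replicate 2 (adjusted p = 0.13), without 12 h replicate 1 (0.19), without 12 h replicate 2 (0.056), with a minimum mean of 1 CPM (0.053) and with only the 2 groups (0.061).

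Outside the lists, SH3RF3, a RING-finger protein, rose from 0.845, 0.925 and 1.41 CPM to 10.6, 7.22 and 9.10 CPM (3.04 ± 0.19). GLIPR1 rose by 2.21 ± 0.22, the steroid sulfatase STS by 1.95 ± 0.19, the chloride channel ANO1 by 1.95 ± 0.31, LANCL2 by 1.87 ± 0.12, the caveolar protein CAV1 by 1.81 ± 0.27, the NADPH oxidase NOX4 by 1.78 ± 0.22, STK32B by 1.77 ± 0.17 and the semaphorin receptor PLXNA4 by 1.76 ± 0.21. The matrix genes TNC, LOXL1 and LOX rose by 1.51 ± 0.20, 1.26 ± 0.09 and 1.02 ± 0.24, within a list of 28 where 7 rose and 9 fell. Among the largest falls were TESMIN (chromosome 11, 68707440 to 68751520), from 4.23, 4.01 and 4.07 CPM to 0.306, 0.685 and 0.835 CPM (-2.71 ± 0.23, adjusted p = 5e-10), and CACNA1I, a calcium channel (-2.05 ± 0.27). The stress hormone receptor CRHR1 (-2.04 ± 0.22), CRYL1 (-1.90 ± 0.24), TBC1D26 (-1.88 ± 0.17), MICB (-1.77 ± 0.23), the teneurin TENM1 (-1.70 ± 0.18), TNNI3K (-1.55 ± 0.17), STAC2 (-1.55 ± 0.19), A4GALT (-1.54 ± 0.19) and ZMYND10 (-1.46 ± 0.24) followed. The rule that took the 15 largest rises and falls required that the 3 libraries per group lie wholly apart. The next in size, not taken by the rule, were CHD5 (1.71) and ACTC1 (1.69) among the rises and GABRA3 (-1.44) and MLXIPL (-1.44) among the falls.

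What came next was set beside these values in the same uninduced cultures. Over the second 12 h, which shares the 12 h libraries with the first, 17.9% of all genes rose and 17.2% fell, 35.1% in either direction. HSPA8 averaged 851 CPM at 24 h and then 473 CPM at 48 h, FST at 117 and then 123 CPM, LEFTY2 at 121 and then 52.7 CPM, WNT3A at 3.06 and then 1.06 CPM and ACTB at 3027 and then 2940 CPM. These 5 were lower at 24 h than at 12 h. CDKN2C measured 7 CPM at 24 h, on average, and 11.3 CPM at 48 h, and CENPE at 114 and 144 CPM. A single contrast tested whether the first 12 h change differed from the second: 3606 genes (18.3%) had a positive difference and 3625 (18.4%) a negative one, 36.8% in either direction. In the heat shock list the difference was positive for 16 of 17 genes and negative for 0, with a median of 1.30. For ribosome biogenesis genes it was positive for 20 of 23, for Activin and TGF-beta targets for 10 of 15, for unfolded protein response genes for 13 of 16 and for S phase genes for 16 of 23. It was negative for 23 of 25 G2 and M phase genes, with a median of -0.77. Hypoxia and glycolysis genes were unlike these, with 11 positive and 5 negative of 25 and a median of -0.01. PFKFB4 went from 177, 171 and 189 CPM at 12 h to a mean of 231 CPM at 24 h.

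**Figure D3:**
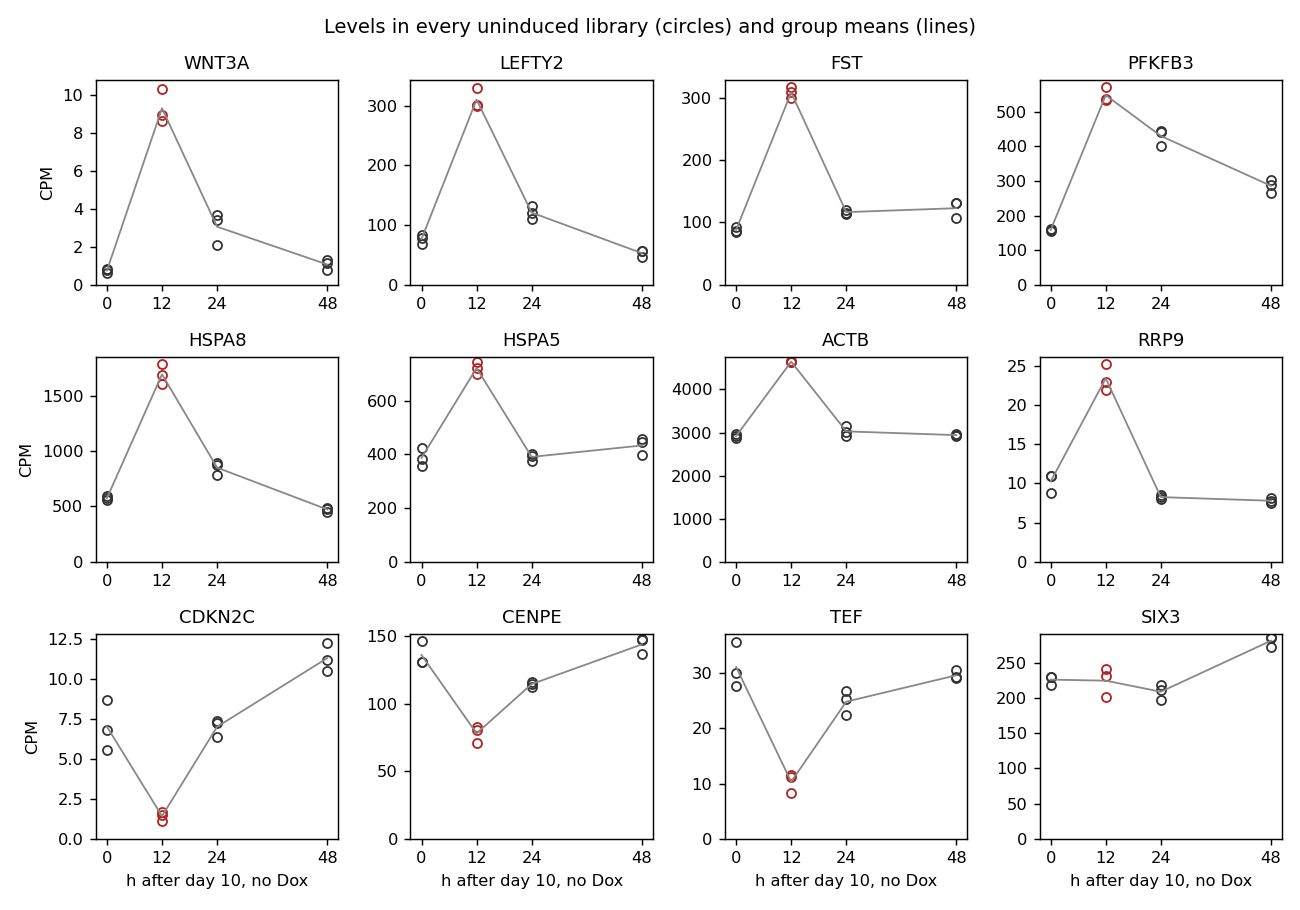
CPM (vertical axis, from 0) of 12 genes in every uninduced library (circles, red at 12 h) against hours after day 10, with lines through the group means. The first 8 genes peak at 12 h, CDKN2C, CENPE and TEF are lowest there, and SIX3 lies between 218 and 231 CPM at day 10 and 202 and 241 CPM at 12 h.

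**Figure D4:**
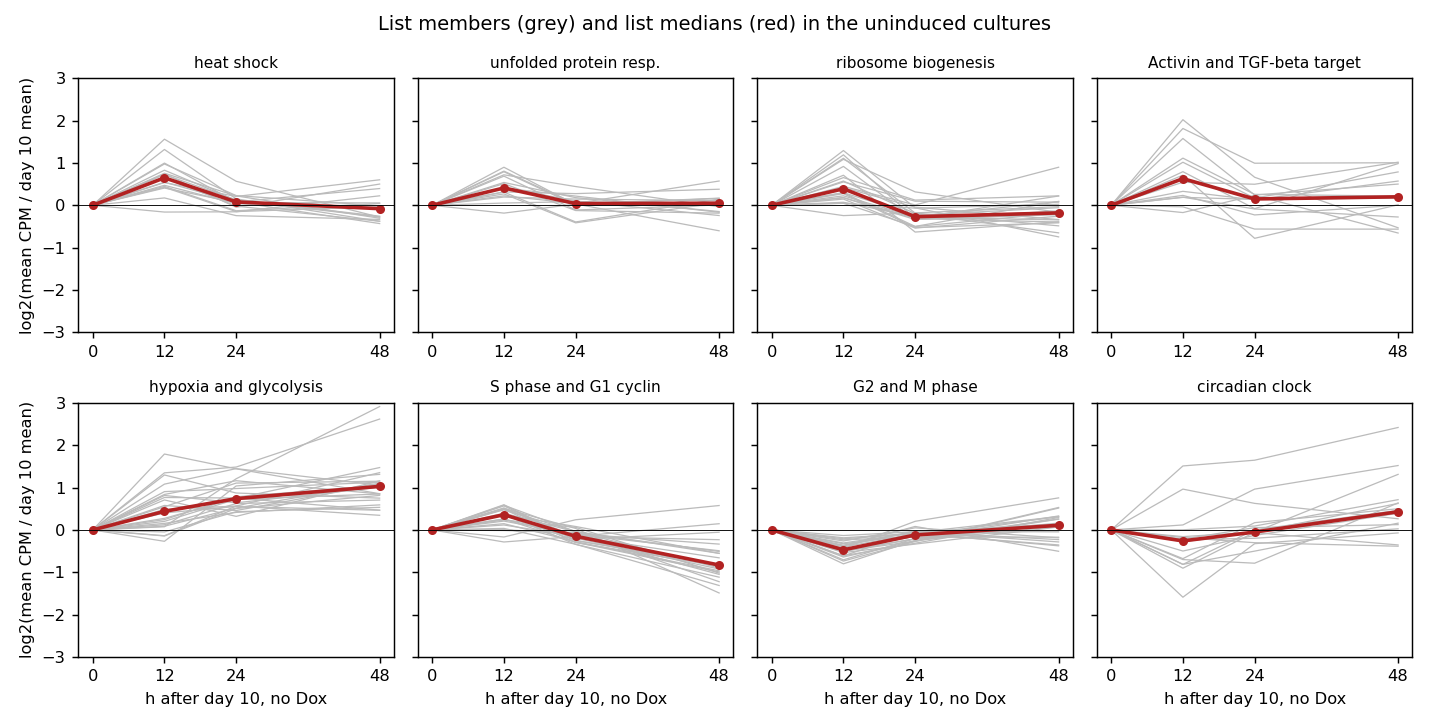
Log2 of the mean CPM over the day 10 mean (vertical axis) at 12, 24 and 48 h for members of 8 lists with at least 1 CPM at day 10 (grey lines) and their medians (red). The heat shock median is 0.65 at 12 h and 0.08 at 24 h, the G2 and M phase median -0.47 and -0.12, and the hypoxia and glycolysis median goes on up, from 0.44 to 0.74 and 1.03.

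Read against day 10 as a description, list medians took several courses. Over members with at least 1 CPM at day 10, the median log2 ratio of means was 0.65 at 12 h, 0.08 at 24 h and -0.08 at 48 h for heat shock genes, and 0.41, 0.04 and 0.05 for unfolded protein response genes. S phase genes passed through 0.36 and -0.15 to -0.83, and G2 and M phase genes through -0.47 and -0.12 to 0.11. Ribosome biogenesis genes went from 0.39 to -0.27 and -0.18. Activin and TGF-beta targets went from 0.63 to 0.15 and 0.2, and clock genes from -0.26 to -0.05 and 0.43. Hypoxia and glycolysis genes went from 0.44 to 0.74 and 1.03, with VEGFA at 732 CPM at 48 h against 253, 268 and 269 CPM at day 10.

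The step from 24 h to 48 h shares no library with the first 12 h. In that step 21.5% of all genes rose and 19.9% fell, 41.4% in either direction. Of the 3051 genes higher at 12 h, 10.5% rose and 45.5% fell in the later step. Of the 3202 genes lower at 12 h, 49.8% rose and 6.46% fell. Put the other way, genes higher at 12 h made up 35.5% of those that fell later, and genes lower at 12 h made up 37.8% of those that rose later. Among genes changed at least 2-fold, 36.6% of the 470 that had risen fell later, and 43.6% of the 314 that had fallen rose later. Scaling by library totals moved the median of the later step from 0.003 to -0.093 and its split to 15% higher and 27.3% lower, and under it 55.5% of the first group fell and 38.3% of the second rose. Below the median level of 15.2 CPM, 41.7% of the earlier risers fell, where 17.2% of all genes there did, and 42.6% of the earlier fallers rose, against 14.7%. At or above it, 47.8% of the earlier risers fell, against 22.6%, and 53.9% of the earlier fallers rose, against 28.3%. TEF rose on from 24.8 to 29.6 CPM and CDKN2C from 7 to 11.3 CPM, while NEUROG1 dropped from 14.4 to 3.62 CPM and LANCL2 from 19.7 to 8.24 CPM between 24 h and 48 h.

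**Figure D5:**
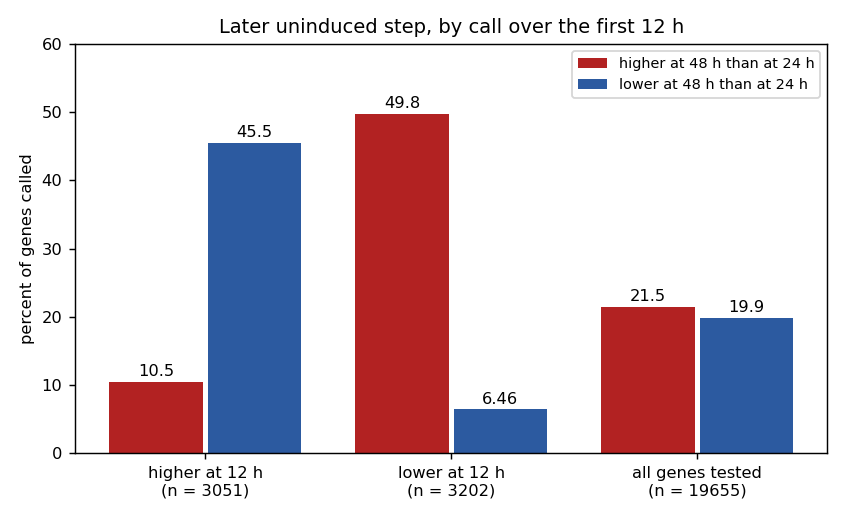
Percent of genes called higher (red) or lower (blue) at 48 h than at 24 h (vertical axis, from 0) among the 3051 genes higher at 12 h, the 3202 lower at 12 h and all 19655 tested. Genes that rose first were more often lower later, 45.5% against 10.5% higher, and genes that fell first were more often higher later, 49.8% against 6.46%.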

How the data were processed

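RNA was measured in 21 libraries in 7 groups of 3, grouped from the labels, and 6 of them make the comparison. The authors deposited whole-number counts per gene; the processing notes of the submitters name STAR 2.7.9, Subread 2.0.3, DESeq2 and hg38, and no annotation or strand setting is named there, so reads of overlapping antisense genes may not be told apart. The authors also deposited a normalized signal table, in which each value is the count over 1 factor per sample, for 19874 features, those that reach 10 counts in 3 or more samples; an alternative took log2 of these values + 1 or + 0.5.

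Counts were tested with edgeR 4.0.16 (R 4.3.3): TMM scaling, filterByExpr (99.9% of counts kept in the library that kept least), robust quasi-likelihood F test, all 7 groups, 14 residual degrees of freedom, coefficient of variation 7.24%, and Benjamini-Hochberg adjustment over 19655 features at 0.05. The ± is the absolute log2 fold change over the square root of F. The contrasts were 12 h against day 10, 24 h against 12 h, 48 h against 24 h, and the first step minus the second. Total counts of the 6 libraries, 14.4 to 22.7 M (M, 1e6), limit genes of under about 1 CPM most. The procedure was tested on simulated data.

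The members, the 48 gene lists (871 genes, 783 tested) and the rules were chosen with earlier results of these data known. Named genes are GSX2 and the transgene, the 15 largest increases and decreases in log2 fold change (adjusted p below 0.05, mean of at least 2 CPM, groups wholly apart, no clone-style name), the 8 largest each way in CPM, up to 4 called members a list, and other members with their values; for the step difference, 5 each way. Some genes that the rule takes are not reported here.

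Alternatives were DESeq2-style size factors, library totals, no filter, a mean of at least 1 CPM, only the 2 groups, a block for replicate number, a threshold test of a 2-fold change (edgeR glmTreat), DESeq2 1.42.0, limma 3.58.1 on the deposited normalized values, and each library left out. Promoter windows came from a RefSeq table; 8 motifs were in the design, and the heat shock, ER stress, E2F, TTTGAA and CCAAT motifs were added after the lists were seen to change.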

Additional observations from a re-analysis of the deposited data

Results flagged for a closer look

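The change over the first 12 h differed from that over the second 12 h for many genes, by a contrast of the first minus the second step in edgeR's quasi-likelihood test. The difference was positive for 3606 genes and negative for 3625 at an adjusted p below 0.05. Both steps use the 12 h libraries, so the spread of those 3 libraries enters both steps with opposite sign.

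The 5 largest positive differences on the log2 scale among genes of at least 2 CPM were those of WNT3A (5.25), SH3RF3 (4.04), GPATCH4 (3.50), GLIPR1 (3.47) and LANCL2 (3.39). GPATCH4 measured 7.54, 7.22 and 8.57 CPM at day 10, 23.3, 17.8 and 18.7 CPM at 12 h and 4.46 CPM on average at 24 h. The 5 largest negative differences were those of TESMIN (-4.89), RAPGEF4 (-4.86), CDKN2C (-4.58), ATP8B3 (-4.11) and CRHR1 (-3.60). RAPGEF4, an exchange factor for RAP proteins, measured 3.45, 2.03 and 2.43 CPM at day 10, 0.510, 0.685 and 1.01 CPM at 12 h and 6.37 CPM on average at 24 h. These 10 genes kept their calls under each alternative run for them.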

How the results depend on the processing

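No called gene among those named changed sign under an alternative. Values that were not called did: GSX2 went from -0.10 to 0.08 without day 10 replicate 1 and to 0.02 without 12 h replicate 3, and the transgene from -0.37 to 0.12 without 12 h replicate 2. So did 12 of 48 list medians when 1 library was left out, such as ventral pallium genes (0.083 to -0.133 without day 10 replicate 2) and hedgehog genes (0.065 to -0.036 without day 10 replicate 1). Genes higher and lower at 12 h numbered 3190 and 3024 with DESeq2-style size factors, 2982 and 3231 with library totals, and 3219 and 3073 by DESeq2's Wald test, so which direction held more calls depended on the scaling or tool. For the step from 24 h to 48 h these counts were 4224 and 3909, and 2954 and 5368 with library totals. A threshold test of a log2 fold change over 1 called 33 genes higher and 9 lower, and its at least 2-fold counts were the same 33 and 9. A minimum mean of 1 CPM, which tests fewer genes, left 258 genes at least 2-fold higher and 200 at least 2-fold lower. Leaving out each replicate gave 2440 to 2817 genes higher and 2506 to 2938 lower, 405 to 506 and 279 to 344 at least 2-fold, and 2840 to 3682 positive and 2777 to 3684 negative step differences.

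With a replicate block over all 7 groups 3073 genes were higher and 3277 lower, and within the 2 groups alone the block gave 3177 and 3109 against 2827 and 2778 without it. Deviations of same-numbered libraries correlated at 0.225, 0.0478 and 0.209, not all above 0.1, so the numbers were not taken as a pairing; day 10 replicate 2 correlated best with 12 h replicate 3 (0.192). Of 392 named genes and list members called, 105 lost the call under at least one alternative, that threshold test aside, with a largest log2 fold change of 1.53, and 287 kept it. The smallest library sets the depth limit for genes under about 1 CPM.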
